A study of Mus musculus with 8 samples.

Results

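The cells described here were endothelial cells of infarcted mouse hearts that held many transcripts of Plvap and none of the venular genes Ackr1 and Selp. A cell was taken when it came from a mouse with myocardial infarction (MI), held at least 3 unique molecular identifiers (UMIs, each 1 captured transcript) of Plvap and a UMI of Pecam1, Kdr or Cdh5, and held 0 UMIs of Ackr1, Selp, Cytl1, Mki67, Top2a, Ptprc, Rgs5 and Ccl21a. These 8 genes mark, among others, venular cells (Ackr1, Selp), dividing cells (Mki67, Top2a), leukocytes (Ptprc), pericytes (Rgs5) and lymphatic cells (Ccl21a). The rule found 1098 Plvap-high cells among 17546 cells of MI mice and 31028 cells in all, namely 330, 242, 413 and 113 cells in mice MI 244, MI 250, MI 255 and MI 256. They were compared within each mouse with 8132 Plvap-zero cells, which met the same rule except that they held 0 UMIs of Plvap.

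The study asked which states of cardiac endothelial cells appear while vessels regrow after MI. Adult Pdgfb-iCreERT2-R26R-Brainbow2.1 mice received a single injection of tamoxifen at 150 mg/kg, which switches on 1 of several fluorescent (Confetti) proteins in cells with an active Pdgfb promoter. In 4 mice the left anterior descending coronary artery was ligated 14 days later and ventricles were taken 7 days post-MI, and 4 healthy mice without surgery were taken at the same 21 days post-tamoxifen. Cells that were CD31+, Confetti+ and Podoplanin- were sorted, and 1 droplet-based single-cell RNA library was made per mouse. All 8 mice carried the same transgenes and had the same tamoxifen. The sort was set for CD31+ cells in which the Pdgfb-driven recombinase had acted, so unlabelled endothelial cells of the same vessels were not sampled. The libraries nonetheless held some cells with a macrophage or pericyte gene and no UMI of Pecam1, Kdr or Cdh5. The healthy mice had no sham operation, and surgery and infarction cannot be told apart.

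Plvap encodes the protein of the thin diaphragms that span caveolae, transendothelial channels and fenestrae. The continuous capillaries of the heart carry many caveolae for the transport of fatty acids and albumin, and diaphragms are better known from venules, endocardium and endocrine organs. Growing vessels pass through a stage in which endothelial cells loosen their junctions, rebuild the basement membrane with proteases and new collagen IV, and divide roles between leading tip cells and trailing stalk cells. Plvap is well known in vessels of tumours and wounds.

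The label of the cells held in the genes that the rule did not use. The summed level of Tie1, Tek, Egfl7, Esam and Cldn5, 5 endothelial genes, was 3955 to 4396 CPM (UMIs of a gene scaled to a total of 1000000 in the summed cells) in the Plvap-high cells of the 4 MI mice and 3832 to 4297 CPM in the Plvap-zero cells. Markers of most other cell types were low in both classes. The macrophage genes C1qa, C1qb, C1qc, Lyz2, Cd68 and Csf1r summed to 227 to 762 CPM against 434 to 1007 CPM, the 7 fibroblast genes to 22.7 to 61.7 against 64.0 to 100.3 CPM, the 6 pericyte genes to 21.2 to 40.0 against 10.1 to 18.8 CPM, and the 6 cardiomyocyte genes to 15.7 to 59.1 against 36.1 to 82.2 CPM. Cspg4 of pericytes, Cnn1 of smooth muscle and Cd3e of T cells were at 0 in the Plvap-high cells of all 4 mice. The 4 smooth muscle genes summed to 13.6 to 101.5 CPM against 7.70 to 21.1 CPM, where the highest value came from MI 244, and the 4 lymphatic genes to 3.03 to 77.3 CPM against 1.28 to 3.52 CPM. The B or T cell, neutrophil and platelet genes summed to at most 49.8, 37.9 and 27.3 CPM in the Plvap-high cells. The 4 erythroid genes went the other way, with 58.1 to 398 CPM against 875 to 5512 CPM. Their part in the results was not tested, and counts without the cells that held markers of other types stand beside the comparison.

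MI libraries held 15865234 to 27244947 UMIs in 3581 to 5109 cells, and healthy libraries 6764977 to 8793655 UMIs in 2750 to 3807 cells. Each pair of MI libraries shared 21 to 40 cell barcodes, and none of these cells was a copy of another. Of the healthy libraries, 55.3% of the cells of Healthy 228 and 10.9% of Healthy 227 were copies of cells in another healthy library with at least 90% of their UMIs matched, and they were left out. Plvap-high cells were the deeper cells, with a median of 5572 to 6600.5 UMIs per mouse against 2957 to 3699 UMIs in Plvap-zero cells, and their median share of mitochondrial UMIs was 2.60 to 3.67% against 2.09 to 3.10%. Every selected cell was therefore thinned at random to 2000 UMIs before its counts were summed, and 4 Plvap-high and 545 Plvap-zero cells below that depth were left out. At that depth a cell held a median of 1141 to 1156 genes against 1129 to 1163.

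Of the sorted cells of MI mice 17175 held an endothelial UMI, and 11331 of these were left after the exclusions. Plvap-high cells were a minority of the cells left in each MI mouse and were nearly missing from healthy mice. Of the endothelial cells left after the exclusions they were 11.4% (330 of 2906) in MI 244, 6.67% (242 of 3626) in MI 250, 17.8% (413 of 2316) in MI 255 and 4.55% (113 of 2483) in MI 256. The exact (Clopper-Pearson) 95% binomial intervals of these shares, which cover counting error only, ran from 10.2 to 12.6%, 5.88 to 7.54%, 16.3 to 19.5% and 3.77 to 5.45%, so that the mice differed from each other by more than counting error. The mean was 10.1 ± 5.88% (SD, n = 4).

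In the healthy mice the same rule found 4, 1, 3 and 1 cells, or 0.192%, 0.0744%, 0.0948% and 0.0343% of the endothelial cells left, with a mean of 0.0988 ± 0.0669% (SD, n = 4). The groups did not overlap. Healthy cells were shallower, with a median of 1524 to 2098.5 UMIs per cell against 3485 to 4833 in MI mice, so the rule was also applied after each cell had been thinned to 1000 UMIs, and the means became 3.47% in MI and 0.0498% in healthy mice. The Plvap limit chose the cells, so the shares are given without a test. With 1 to 4 cells per healthy mouse, no level could be set for healthy Plvap-high cells.

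**Figure D1:**
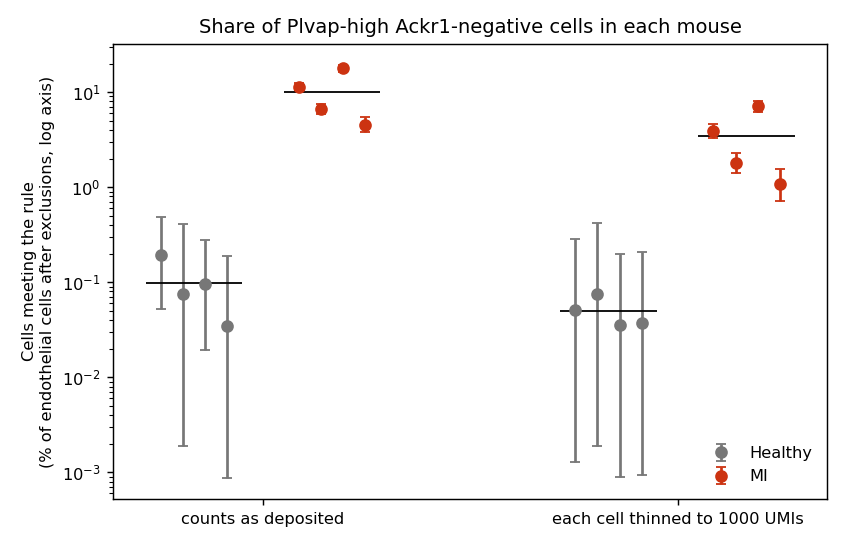
Share of cells meeting the rule among endothelial cells after exclusions (%, log axis) in 4 healthy (grey) and 4 MI (red) mice, on the counts as deposited and after thinning each cell to 1000 UMIs. Points are mice, bars are exact 95% binomial intervals and lines are group means; MI mice lie between 4.55 and 17.8% and healthy mice between 0.0343 and 0.192% on the deposited counts.

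Free RNA in the droplets sets a floor for such counts. Among 220 MI cells with at least 3 UMIs of the macrophage gene C1qa and no UMI of Pecam1, Kdr or Cdh5, 29.1% held a UMI of Plvap at a median depth of 5010.5 UMIs, but 0 held 3 or more, which allows a share of up to 1.36%. These cells were chosen as a reference after the data had been seen. Among all 1002 MI cells with at least 3 UMIs of C1qa, most of which did hold an endothelial UMI, 18.6% held 3 or more of Plvap, at a median depth of 7683.5 UMIs, against 9.69% of the 11331 endothelial cells left after the exclusions, at a median depth of 3736 UMIs. With each of these cells thinned to 1000 UMIs, the shares were 2.69% and 2.27%. The exclusions were still made on the deposited counts of the endothelial cells, and none were made on the C1qa cells. With the rule and its exclusions applied after thinning, 435 of 12874 endothelial cells met it, a mean of 3.47% over the MI mice. The share in C1qa cells thus lay between these 2 endothelial values. Among 419 cells with at least 3 UMIs of Rgs5 it was 6.92% as deposited and 0.239% at 1000 UMIs. How much of the Plvap in the selected cells was free RNA or came from a second cell in the droplet was not tested. Cells of MI mice with 1 or 2 UMIs of Plvap, 2101 after the exclusions, were kept out of both classes. Before the exclusions 2485 endothelial cells of MI mice held 3 or more UMIs of Plvap, and 711 of them held Selp, 506 Ackr1, 280 Top2a, 241 Mki67, 218 Rgs5, 147 Ccl21a, 146 Ptprc and 107 Cytl1.

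Within the selected cells Plvap ran from 3 to 140 UMIs, with a median of 7. There were 184 cells with 3 UMIs, 119 with 4, 400 with 5 to 9 and 395 (36.0%) with 10 or more, and 416 cells lay just outside the limit with 2 UMIs. The median was 7, 7, 8 and 6 UMIs in MI 244, MI 250, MI 255 and MI 256, and cells with 10 or more were fewest in MI 256 (23.9%) and most frequent in MI 244 (38.8%). These counts are what the rule used and are a description only.

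4 genes had been proposed as markers of these cells beside Plvap, and they are described without a test. Igfbp3, which binds insulin-like growth factors (IGFs), was at 868, 768, 849 and 550 CPM in the Plvap-high cells of MI 244, MI 250, MI 255 and MI 256 and at 319, 252, 373 and 301 CPM in their Plvap-zero cells, and every Plvap-high value was above every Plvap-zero value. Col18a1, the basement membrane collagen that also yields endostatin, was at 277, 332, 311 and 277 CPM against 102, 95.4, 151 and 97.3 CPM. The log2 differences were 1.31 ± 0.32 and 1.42 ± 0.31 (SD over 4 mice). Mmp14, the membrane-bound matrix metalloproteinase that opens collagen for sprouts, was at 168, 151, 179 and 150 CPM against 42.4, 41.2, 56.6 and 28.1 CPM. AA467197, a small mitochondrial protein gene also called Nmes1, was at 211, 141, 121 and 132 CPM against 42.9, 31.2, 33.6 and 22.3 CPM and was highest in MI 244. The log2 differences of Mmp14 and AA467197 were 1.91 ± 0.31 and 2.18 ± 0.29. None of the 4 was found in every cell, since at 2000 UMIs a UMI of Igfbp3 was held by 35.5% of Plvap-high and 27.1% of Plvap-zero cells, of Col18a1 by 36.6% and 15.9%, of Mmp14 by 24.4% and 7.36%, and of AA467197 by 20.7% and 5.3%. Igfbp3 thus differed more in level than in the share of cells that held it. In GRCm38 the genes lie at chr11:7206086-7213923 (Igfbp3, minus strand), chr10:77052178-77166548 (Col18a1, minus strand), chr14:54431612-54445364 (Mmp14, plus strand) and chr2:122636986-122641191 (AA467197, plus strand), and Plvap lies at chr8:71497765-71511752 (minus strand).

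The promoter of AA467197 is not shown, because its window held too many bases of an annotated untranslated region. Those of the 3 other markers are given as a description. Each is the 250 bases before the RefSeq start in GRCm38.p6, 5′ to 3′, on the minus strand for Col18a1 and Igfbp3 and on the plus strand for Mmp14. Capitals mark matches, on either strand, to the letters of 5 motifs: GGGCGG for the GC box, ACGTG for the core of the hypoxia response element, CCGGAAG for the binding sequence of ETS factors, TGANTCA for that of AP-1 factors and TATAAA for the sequence to which the TATA-binding protein binds.
Mmp14, chr14:54431348-54431597: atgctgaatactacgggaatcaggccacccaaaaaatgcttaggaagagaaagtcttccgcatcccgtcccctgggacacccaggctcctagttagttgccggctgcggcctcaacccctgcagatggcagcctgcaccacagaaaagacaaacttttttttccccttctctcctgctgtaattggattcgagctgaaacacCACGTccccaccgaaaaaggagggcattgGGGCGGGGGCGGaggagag
Col18a1, chr10:77166531-77166780: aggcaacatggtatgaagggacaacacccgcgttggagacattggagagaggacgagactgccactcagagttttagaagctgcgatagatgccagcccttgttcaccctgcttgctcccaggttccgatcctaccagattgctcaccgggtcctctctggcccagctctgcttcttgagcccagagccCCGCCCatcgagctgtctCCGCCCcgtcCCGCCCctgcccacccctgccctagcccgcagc
Igfbp3, chr11:7213924-7214173: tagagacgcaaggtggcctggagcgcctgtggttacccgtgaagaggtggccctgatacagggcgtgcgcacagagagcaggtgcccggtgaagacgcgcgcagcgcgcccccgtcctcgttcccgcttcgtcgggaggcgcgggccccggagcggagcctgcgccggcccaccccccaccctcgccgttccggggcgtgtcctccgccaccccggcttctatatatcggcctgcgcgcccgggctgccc
Mmp14 held GGGCGG at -19 and -13 and ACGTG on the opposite strand at -48, counted from the start of transcription. Col18a1, for which the first listed start was used, held GGGCGG on the opposite strand at -61, -43 and -33. The window of Igfbp3 held none of these letters. GGGCGG was present in 32.9% of 27025 promoter windows of this length and ACGTG in 16.6%. Among genes with a window, GGGCGG was found in 63.1% of the 681 that were higher in Plvap-high cells and in 61.9% of the 7826 tested, and ACGTG in 21.0% and 22.5%. The matches are a description of the sequence only.

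**Figure D2:**
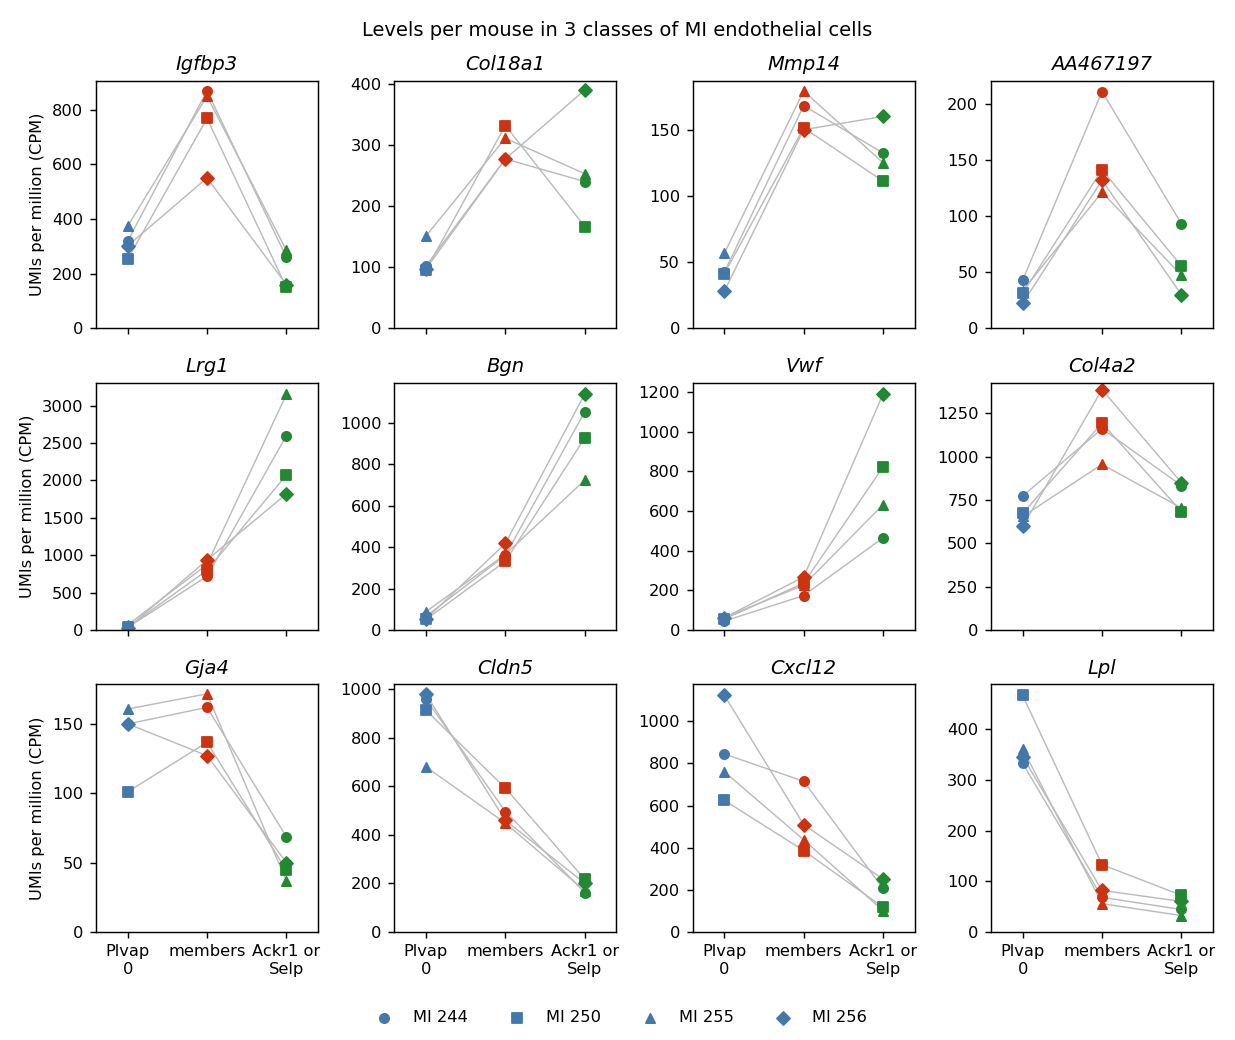
Levels (CPM, linear axes from 0) of 12 genes in Plvap-zero cells (blue), Plvap-high Ackr1-negative cells (red, members) and Plvap-high cells with a UMI of Ackr1 or Selp (green) of MI mice. Symbols are mice and lines join values of 1 mouse; Igfbp3 and AA467197 peak in the middle class, Lrg1, Bgn and Vwf are highest in the green class, and Lpl is low in both Plvap-high classes.

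Across the transcriptome the Plvap-high cells differed from the Plvap-zero cells of the same mice in many genes. Of 10223 genes tested, with the genes of the rule removed, 917 (8.97%) were higher and 899 (8.79%) lower at an adjusted p under 0.05 in edgeR's two-sided quasi-likelihood test with the mouse as a block, and the median log2 difference of all genes was -0.00. A gene entered the test when it reached 5.91 CPM, or 10 UMIs at the median sum, in at least 2 of the 8 sums. Of the genes that were higher 130, and of those that were lower 61, reached this only through the class in which they were higher, and so had to differ to be tested. Among the listed genes these were Thbs1, Timp1, Sele and Tagln (higher) and Postn (lower), which stay in the counts below and are not used as examples. The values of the 2 classes did not overlap in 828 genes (8.1%) that were above and 862 (8.43%) that were below. With Plvap-zero cells drawn to match the total UMIs of the Plvap-high cells in each mouse, 545 genes were higher and 564 lower of 7539 tested, and without cells that held a marker of another cell type 360 were higher and 386 lower of 7322.

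The gene with the largest increase was Lrg1, a secreted glycoprotein that modifies TGF-beta signalling in endothelial cells. It was at 719.7, 799, 877 and 936 CPM in the Plvap-high cells of MI 244, MI 250, MI 255 and MI 256 and at 34.9, 36.9, 69.5 and 27.5 CPM in their Plvap-zero cells, which is a 19.8-fold difference (log2 4.31 ± 0.57, SD over 4 mice, higher in 4 of 4 mice, edgeR adjusted p = 1.39e-43). 54.7% of Plvap-high and 7.37% of Plvap-zero cells held a UMI of it. Bgn, the matrix proteoglycan biglycan, was at 361, 332, 366 and 418 CPM against 66.7, 51.7, 89.1 and 53.6 CPM (log2 2.47 ± 0.39, adjusted p = 4.45e-31). Vwf, the von Willebrand factor stored by endothelial cells, was at 174, 237, 226 and 268 CPM against 45.4, 55.5, 63.7 and 62.2 CPM (log2 1.97 ± 0.13, adjusted p = 4.48e-25). For these genes no Plvap-high value fell into the range of the Plvap-zero values. The study lists Lrg1, Bgn and Vwf beside Plvap as top genes of the same cluster of cells in these data. Their increase was therefore known beforehand and is not independent support. Adjusted p-values this small rest on a spread that edgeR shares over genes, so the SD over mice is the better measure of error.

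The other genes reported here among the 12 with the largest increase were all higher in 4 of 4 mice. AA467197 was among them, as a marker proposed beforehand. The rest were Fam167b (log2 2.64 ± 0.05), Tmem252 (2.44 ± 0.60), Slco2a1 (the prostaglandin transporter, 2.39 ± 0.39), Tmem176a (2.15 ± 0.03) and Fblim1 (a filamin-binding protein of focal adhesions, 1.98 ± 0.46). Fam167b and Tmem176a were the most even, since Fam167b was at 297, 344, 293 and 227 CPM against 49, 53.4, 46.5 and 37.3 CPM. Tmem252 varied most of these, at 124, 89.2, 145 and 54.5 CPM against 25.4, 19.2, 25 and 4.05 CPM. The named genes were chosen as the 12 largest changes on each side among genes past the threshold with a mean of at least 50 CPM and 1 direction in all 4 mice, which 979 genes met.

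Outside haemoglobin the largest decrease was that of Timp4, followed by Art3, Mycn, Cyp4b1, Car4 and Lpl. Timp4, an inhibitor of matrix metalloproteinases, was at 7.58, 45.6, 14.5 and 50 CPM in the Plvap-high cells and 157, 462, 173 and 282 CPM in the Plvap-zero cells (log2 -3.41 ± 0.72, lower in 4 of 4 mice, adjusted p = 4.42e-28). Lpl, the lipoprotein lipase that frees fatty acids at the capillary wall, was at 68.2, 133, 55.7 and 81.8 CPM against 333, 467, 362 and 346 CPM (log2 -2.23 ± 0.37, adjusted p = 7.09e-26). Car4, a membrane-bound carbonic anhydrase of capillaries, was at 27.3, 33.2, 8.47 and 36.4 CPM against 138, 214, 61.3 and 200.1 CPM (log2 -2.56 ± 0.20, adjusted p = 5.98e-21). In these 3 genes all Plvap-high values were below all Plvap-zero values. The same held for Art3 (log2 -2.73 ± 0.35), the transcription factor Mycn (-2.58 ± 0.56), the fatty acid hydroxylase Cyp4b1 (-2.57 ± 0.25), the glycerol channel Aqp7 (-2.13 ± 0.35) and the cell cycle inhibitor Cdkn1c (-2.02 ± 0.35), which had adjusted p-values of 6.01e-23, 1.53e-17, 1.49e-26, 3.67e-24 and 3.14e-22.

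The haemoglobin genes Hba-a1, Hba-a2, Hbb-bt and Hbb-bs had log2 differences of -4.33, -4.22, -4.19 and -3.29, but these came from few cells. A haemoglobin UMI was held by 61.8% of Plvap-high and 55.8% of Plvap-zero cells, and 64 Plvap-zero cells (0.787%) with 10 or more of them held 95.6% of all haemoglobin UMIs of their class, up to 10273 in 1 cell. Without the cells that held 10 or more, a choice made after these genes had been seen, the log2 differences were -0.11, 0.04, -0.39 and 0.04, and none passed the threshold.

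Of 10 genes listed for caveolae and diaphragms, 2 of the 9 genes tested were higher in the Plvap-high cells, 6 lower and 1 did not pass, with a median log2 difference of -0.69, against 8.97% higher and 8.79% lower among all genes. Cav1, the main caveolin, was at 1450, 1319.5, 1284 and 1350 CPM against 2181, 2293, 2078 and 2136 CPM (log2 -0.69 ± 0.09, adjusted p = 5.43e-14), lower in 4 of 4 mice with no overlap. Sdpr, which shapes caveolae and is also called cavin-2, was lower as well (log2 -1.12 ± 0.04, 787 against 1693 CPM). The 2 genes that were higher were Ehd4, an ATPase of endosomal and caveolar membranes (log2 1.19 ± 0.23, 344 against 152 CPM), and Prkcdbp, or cavin-3 (0.67 ± 0.07, 697 against 437 CPM).

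Genes of the basement membrane were mostly higher. Of 13 listed, 9 of the 13 genes tested were higher in the Plvap-high cells, 1 lower and 3 did not pass, with a median log2 difference of 0.55, against 8.97% higher and 8.79% lower among all genes. Col4a1 and Col4a2, the chains of the main collagen IV, were at 1486 against 854 CPM and 1174 against 675 CPM (log2 0.77 ± 0.24 and 0.76 ± 0.31). Col15a1 was at 397, 438, 345 and 436 CPM against 152, 141, 184 and 117 CPM (log2 1.39 ± 0.42, adjusted p = 3.56e-20) and did not overlap between the classes. The 1 gene that was lower, the laminin chain Lamb2 (log2 -0.50 ± 0.33, adjusted p = 0.0226), lost its call without MI 250, MI 255 or MI 256, with log2 differences of -0.49, -0.44 and -0.41. Col18a1 is counted in this list, as Mmp14 and Igfbp3 are in the lists of proteases and of the IGF axis below, so these counts are not independent of the proposed markers.

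Of 18 genes of the interstitial matrix listed, 8 of the 15 genes tested were higher in the Plvap-high cells, 2 lower and 5 did not pass, with a median log2 difference of 0.42, against 8.97% higher and 8.79% lower among all genes. 1 higher gene and 1 lower gene had been tested through 1 class only. Among the higher genes, Fbln2, Col5a2, Emilin1, Hmcn1, Mgp and Bgn are named by the study as top genes of a cluster with high Plvap. That cluster was found in these same data, so the count of higher genes is not independent of how the cells were chosen. The number of lower genes was 0 without MI 244, at 1000 UMIs per cell, without the block or without cells with markers of other types, and 1 without MI 255 or with DESeq2, while 6 to 8 were higher in each of these. Sparc, which binds collagen, was among the most abundant genes at 5433 ± 361 against 4084 ± 840.1 CPM (log2 0.42 ± 0.25).

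Of the proteases and their inhibitors, 7 of the 14 genes tested were higher in the Plvap-high cells, 5 lower and 2 did not pass, with a median log2 difference of 0.24, against 8.97% higher and 8.79% lower among all genes. With Plvap-zero cells matched on total UMIs 4 of 13 were higher and 5 lower, and without cells with markers of other types 5 were higher and 5 lower of 14, with a median of -0.07. Beside Mmp14, the aggrecanase Adamts4 was higher (112, 85.1, 42.4 and 40.9 CPM against 28.2, 31.2, 26.2 and 13.6 CPM, log2 1.48 ± 0.53, adjusted p = 1.48e-10). Timp3, a tissue inhibitor of metalloproteinases, was lower (344 against 531 CPM, log2 -0.67 ± 0.21), as was Timp4 above. The direction held in 4 of 4 mice for each of these genes.

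No gene of the IGF axis passed the test as lower, and 6 of 10 tested passed as higher, with a median log2 difference of 1.11, against 8.97% higher and 8.79% lower among all genes. 1 gene passed as lower without MI 255 or without cells with markers of other types. The ligand Igf1 was at 57.6, 95.4, 125 and 100 CPM against 20, 22.8, 37.1 and 26.6 CPM (log2 1.80 ± 0.23, adjusted p = 6.73e-16). The insulin receptor gene Insr was at 65 against 20.1 CPM (log2 1.63 ± 0.17). Among the binding proteins, Igfbp5 was at 153, 266, 381 and 359 CPM against 30.5, 66.5, 166 and 59.6 CPM (log2 1.84 ± 0.60), where MI 244 in the first class was below MI 255 in the second, although each mouse had the higher value in its Plvap-high cells. Igfbp7, the most abundant of the list, was at 10019.7, 8678, 7239.7 and 5732 CPM against 4489, 4414, 4003 and 3802 CPM (log2 0.89 ± 0.24, adjusted p = 1.21e-17). The range within the Plvap-high cells was wide, with MI 244 highest and MI 256 lowest.

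Genes of venous and venular endothelium were higher as a list, with 10 of 12 called and a median of 1.72, and none was lower, against 8.97% higher and 8.79% lower among all genes. The list holds Lrg1, Vwf, Tmem176a and Tmem252. The study names these among the top genes of groups of cells (clusters) in which Plvap was highest in these same data. Their calls are therefore not independent of how the cells were chosen. Nr2f2, the transcription factor of vein identity also called COUP-TFII, was at 51.5, 118, 129.5 and 182 CPM against 26.7, 24.9, 51.2 and 31.6 CPM (log2 1.70 ± 0.74, adjusted p = 4.1e-14) and was lowest in MI 244. Il6st, the shared receptor chain gp130, was at 134 against 60.3 CPM (log2 1.07 ± 0.42). Vcam1 and Icam1 were the 2 genes of the list that did not pass. Cells with a UMI of Ackr1 or Selp, 2 venular genes, had been left out beforehand.

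Of 12 arterial genes, 0 of the 12 genes tested were higher in the Plvap-high cells, 6 lower and 6 did not pass, with a median log2 difference of -0.36, against 8.97% higher and 8.79% lower among all genes. Without thinning 2 were higher and 5 lower (median -0.18), where cells were thinned before they were selected 9 of 12 were lower (median -0.71), and without cells with markers of other types 6 of 11 (median -0.92). Without cells that held a UMI of Gja5, Hey1, Sema3g or Bmx, 4 genes of this list, 2 of the 8 still tested were higher and 1 lower (median 0.25), a value that rests on cells chosen by the list itself. Hey1, a Notch target of arteries, was at 48.4 against 124 CPM (log2 -1.28 ± 0.30), Sema3g at 20 against 55 CPM (-1.39 ± 0.39) and the Notch ligand Dll4 at 98.5, 95.4, 87.2 and 59.1 CPM against 156, 163, 147 and 156 CPM (-0.80 ± 0.34, adjusted p = 9.16e-08). The connexin gene Gja4 was at 149.6 against 141 CPM (log2 0.13 ± 0.27, adjusted p = 0.468). Its log2 difference was -0.37 where cells were thinned before they were selected.

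Genes of sprouting did not move as 1 group, with 4 higher and 4 lower of 14 and a median of -0.02, against 8.97% higher and 8.79% lower among all genes. Matched on total UMIs 2 of 13 were higher and 5 lower, and without thinning 7 and 5 of 14, with a median of 0.23. The apelin receptor Aplnr was higher at 839, 1145, 948 and 918 CPM against 579.8, 671, 580.1 and 435 CPM (log2 0.74 ± 0.23, adjusted p = 6.66e-14). Its ligand Apln, a marker of tip cells, was at 99.4 against 115 CPM and did not pass (log2 -0.23 ± 0.31, adjusted p = 0.183). Esm1, another tip cell gene, was higher in 3 of 4 mice (log2 0.59 ± 0.96, adjusted p = 0.0198), lost its call without MI 244, MI 250 or MI 256 (log2 0.41, 0.28 and 0.60) and was at -0.04 without arterial cells. Of 11 VEGF and angiopoietin genes, Flt1 (VEGF receptor 1) was higher (0.21 ± 0.09, not past the threshold without MI 244 or MI 250, at 0.18 and 0.19), while Nrp1, a VEGF co-receptor (-0.87 ± 0.11, 547 against 1003 CPM), Vegfc (-0.69 ± 0.34) and Nrp2 were lower and 7 did not pass. These calls of 1 higher and 3 lower stand against 8.97% and 8.79% of all genes, and the alternatives gave 0 to 4 higher genes, with 0 for example with DESeq2 and without MI 250, 2 where cells were thinned before they were selected, 3 of 9 with matched cells and 4 of 11 without thinning. Vegfc was at 0.33 without arterial cells and did not pass there.

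A programme of fatty acid handling marks the capillaries of the heart. Of 16 genes listed, 0 of the 15 genes tested were higher in the Plvap-high cells, 13 lower and 2 did not pass, with a median log2 difference of -0.96, against 8.97% higher and 8.79% lower among all genes. The fatty acid transporter Cd36 was at 1089, 1303, 840.2 and 1550 CPM against 2325, 2259, 1814 and 2782 CPM (log2 -0.98 ± 0.16, adjusted p = 8.65e-20). Fabp4, which carries fatty acids through the cell, was the most abundant, at 9722 ± 857 against 16958 ± 1509 CPM (log2 -0.81 ± 0.06). Gpihbp1, which anchors lipoprotein lipase, was at 1294 against 2056 CPM (-0.67 ± 0.04), and the monoglyceride lipase Mgll at 360.5 against 1016 CPM (-1.48 ± 0.21). Tcf15, which with Meox2 controls this programme, was at 188, 293, 129.5 and 200 CPM against 617, 779, 472 and 614 CPM (-1.65 ± 0.19, adjusted p = 6.6e-25). Slc27a3 and Slc27a4 did not pass.

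Genes of glycolysis and hypoxia were higher or did not pass, with 10 of 16 called and a median of 0.50, against 8.97% higher and 8.79% lower among all genes. The glucose transporter Slc2a1 was at 47, 37.3, 40 and 36.4 CPM against 15.9, 16.5, 21.5 and 10.4 CPM (log2 1.27 ± 0.38, adjusted p = 1.34e-06), Gapdh at 907 against 611 CPM (0.54 ± 0.14) and the pyruvate kinase gene Pkm at 683 against 429 CPM (0.67 ± 0.13). The count was 7 of 15 with Plvap-zero cells matched on total UMIs, 5 of 16 where cells were thinned before they were selected and 6 of 15 without cells with markers of other types, none of them lower.

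In the TGF-beta and BMP list, 5 of the 15 genes tested were higher in the Plvap-high cells, 5 lower and 5 did not pass, with a median log2 difference of -0.12, against 8.97% higher and 8.79% lower among all genes. The number of lower genes was 2 with DESeq2, with Plvap-zero cells matched on total UMIs or without arterial cells, and 3 at 1000 UMIs, where 3 were higher. The median was 0.11 where cells were thinned before they were selected, 0.06 without arterial cells and 0.17 without cells with markers of other types. The receptor gene Tgfbr2 (123 against 62.1 CPM, log2 0.94 ± 0.19), the pseudoreceptor Bambi (109, 122, 99.3 and 100 CPM against 35.4, 35.9, 34.8 and 39.1 CPM, 1.59 ± 0.17) and the ligand Bmp4 (71.9 against 36.2 CPM, 0.91 ± 0.45) were higher. The BMP target genes Id1 (367, 566, 416 and 459 CPM against 699, 836, 668 and 768 CPM, -0.73 ± 0.15) and Id3 (1032 against 1430 CPM, -0.48 ± 0.12) were lower in 4 of 4 mice.

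2 response programmes had more lower genes than the 8.79% of all genes, and no higher gene against 8.97%. Of 12 type I interferon genes, 10 were lower and none higher (median -0.81), among them Rsad2 (viperin) at 167, 174, 148 and 90.9 CPM against 354, 392, 458 and 263 CPM (log2 -1.34 ± 0.27, adjusted p = 2.94e-18) and Ifit2 at 57.5 against 144 CPM (-1.35 ± 0.39). Of 12 immediate early genes, which also answer to the dissociation of tissue, 11 were lower and none higher (median -0.44), among them Jun at 997 against 1591 CPM (-0.69 ± 0.10) and Klf6 at 228 against 447 CPM (-0.94 ± 0.21), while Ier3 did not pass (0.14 ± 0.13, adjusted p = 0.352). With Plvap-zero cells matched on total UMIs the counts were 10 of 12 and 6 of 12, again with none higher. Of the immediate early genes 4 were lower without the block and 7 without arterial cells.

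Of 12 S phase genes 1 was higher (Tyms, 87.2 against 47.1 CPM, log2 0.84 ± 0.30) and 1 lower, a share close to the 8.97% and 8.79% of all genes, in cells from which Mki67 and Top2a had been excluded. Over the alternatives 0 or 1 were higher and 0 to 4 lower, with 0 lower for example with DESeq2 and without MI 250, 2 without MI 256 and with matched cells, and 4 without thinning. In the mesenchymal list, 4 of the 9 genes tested were higher in the Plvap-high cells, 0 lower and 5 did not pass, with a median log2 difference of 0.33, against 8.97% higher and 8.79% lower among all genes. That count changed with the choice of cells, since 2 of 9 were higher and 2 lower (median -0.04) where cells were thinned before they were selected, 1 of 6 was higher (median -0.15) with Plvap-zero cells matched on total UMIs, and 1 of 6 (median 0.40) without cells with markers of other types. The summed markers of smooth muscle were at a mean of 43.2 CPM in Plvap-high against 14.5 CPM in Plvap-zero cells and those of pericytes at 31.0 against 13.2 CPM, and their part in this list was not tested. The transcription factor gene Snai1 was at 43.9, 29, 35.1 and 31.8 CPM against 9.75, 9.12, 8.98 and 5.79 CPM (log2 2.01 ± 0.30, adjusted p = 5.18e-10). Vim was at 2912 ± 90.3 against 2253 ± 436 CPM (log2 0.36 ± 0.32), but its log2 difference was -0.13 with Plvap-zero cells matched on total UMIs and -0.04 where cells were thinned before they were selected. Of 10 junction genes, 2 of the 9 genes tested were higher in the Plvap-high cells, 2 lower and 5 did not pass, with a median log2 difference of 0.15, again against 8.97% and 8.79%. Cldn5, the tight junction claudin, was one of the lower genes (498 against 882 CPM, -0.80 ± 0.24). The number of higher junction genes was 4 with matched cells and 1 at 1000 UMIs, without the block or without cells with markers of other types. Of 16 genes of the endoplasmic reticulum tested, 5 were higher and none lower, against 8.97% and 8.79% of all genes, and 3 were higher with DESeq2, with matched cells, at 1000 UMIs, where cells were thinned before they were selected, without the block, without arterial cells or without cells with markers of other types. The 5 included the collagen chaperone Fkbp10 (81.3 against 27.2 CPM, 1.60 ± 0.29) and the prolyl hydroxylase subunit P4hb (135 against 82.8 CPM, 0.69 ± 0.01).

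9 lists had 0 calls in 1 direction. At an unadjusted p under 0.05 in edgeR that direction held 1 venous gene (Icam1, lower), 1 mesenchymal gene (Smtn, lower) and 0 genes of the IGF, arterial, fatty acid, interferon, immediate early, glycolysis and endoplasmic reticulum lists, and DESeq2 called 0 genes in it in all 9. Other alternatives did call genes in it, namely 2 arterial genes as higher without arterial cells, 2 arterial, 1 fatty acid and 1 immediate early gene as higher and 1 venous gene as lower without thinning, 1 venous gene without the filter on low counts, 1 fatty acid gene as higher and 2 mesenchymal genes as lower where cells were thinned before they were selected, 1 gene of the endoplasmic reticulum as lower without MI 256, and 1 mesenchymal gene as lower without arterial cells, beside the IGF gene given above.

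**Figure D3:**
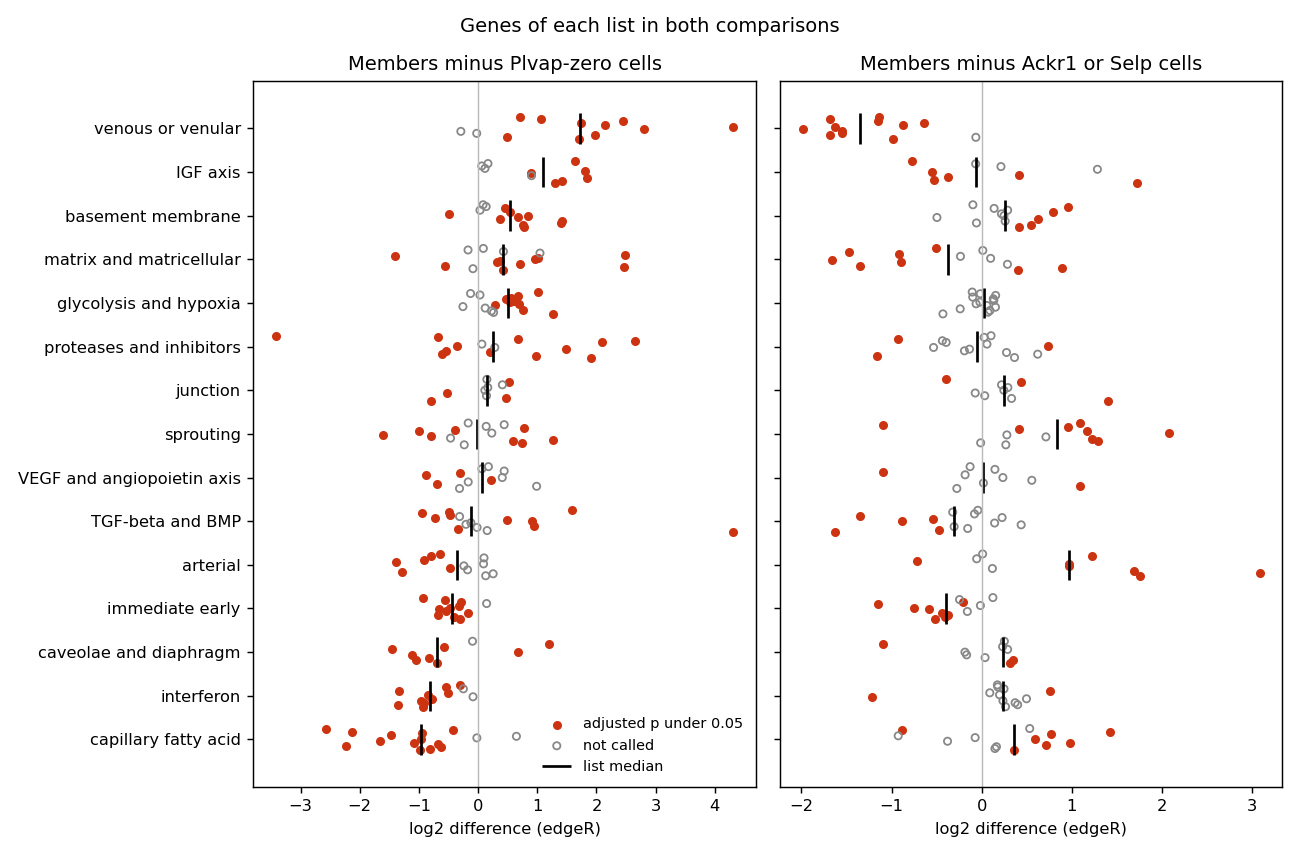
Log2 differences (edgeR) of the genes of 15 lists between Plvap-high Ackr1-negative cells and Plvap-zero cells (left) or Plvap-high cells with a UMI of Ackr1 or Selp (right). Each point is a gene, filled red at an adjusted p under 0.05, and black lines are list medians; the venous list has a median of 1.72 on the left and -1.35 on the right, and the fatty acid list -0.96 and 0.36.

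The level of some genes followed the number of Plvap UMIs within the Plvap-high cells and that of others did not. These values are means ± SD of 4 MI mice and a description, since Plvap made the classes. Lrg1 was at 42.2 ± 18.7 CPM in cells with 0 UMIs of Plvap, 101 ± 22.1 with 1 or 2, 415 ± 62.7 with 3 or 4, 769.7 ± 305 with 5 to 9 and 1218 ± 150.3 with 10 or more. Its mean was higher in each class than in the one before, and Bgn and Mmp14 differed less steeply, from 299 ± 42.6 to 422 ± 66.6 CPM and from 137 ± 25.1 to 186 ± 16.8 CPM between 3 or 4 and 10 or more UMIs. Igfbp3 was at 312 ± 49.9 CPM in cells with 0 UMIs of Plvap, 433 ± 61.2 with 1 or 2, 906 ± 191 with 3 or 4, 773 ± 283 with 5 to 9 and 625 ± 92.9 with 10 or more. It was therefore highest just inside the limit, although the SDs of neighbouring classes of Plvap-high cells overlapped. AA467197 was at 162 ± 39.1, 176 ± 69 and 113 ± 44.3 CPM in the 3 classes of Plvap-high cells. Timp4 was at 269 ± 141 CPM in cells with 0 UMIs of Plvap, 186 ± 100.3 with 1 or 2, 44.7 ± 29.3 with 3 or 4, 24 ± 15.6 with 5 to 9 and 25 ± 33.5 with 10 or more.

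Just outside the limit, in cells with 2 UMIs of Plvap, Lrg1 was at 169 ± 42.7 CPM and just inside, with 3 UMIs, at 305 ± 68.6 CPM. Igfbp3 was at 571 ± 114 and 1283 ± 393 CPM and Timp4 at 96.7 ± 66.1 and 62.3 ± 47.8 CPM. The SDs of Timp4 overlapped and those of Lrg1 and Igfbp3 did not.

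The Plvap-zero cells of MI mice were themselves not at the level of healthy Plvap-zero cells. The healthy cells were thinned to 1000 UMIs per cell and the MI cells to 2000, so that a healthy cell had to hold at least 1000 UMIs and an MI cell at least 2000. In the healthy cells, over 4 mice, Lrg1 was at 0.967 ± 1.22, AA467197 at 1.83 ± 1.74, Mmp14 at 6.23 ± 1.37, Bgn at 14.7 ± 0.142 and Col18a1 at 26.2 ± 7.26 CPM, each below the Plvap-zero cells of MI mice. Timp4 at 413 ± 164, Lpl at 577 ± 175 and Car4 at 328 ± 27.9 CPM were above them. For these genes the order was healthy Plvap-zero, MI Plvap-zero and MI Plvap-high cells, or its reverse. The ranges mean ± SD of Timp4 and Lpl in the 2 Plvap-zero classes overlapped, and these levels were not tested.

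**Figure D4:**
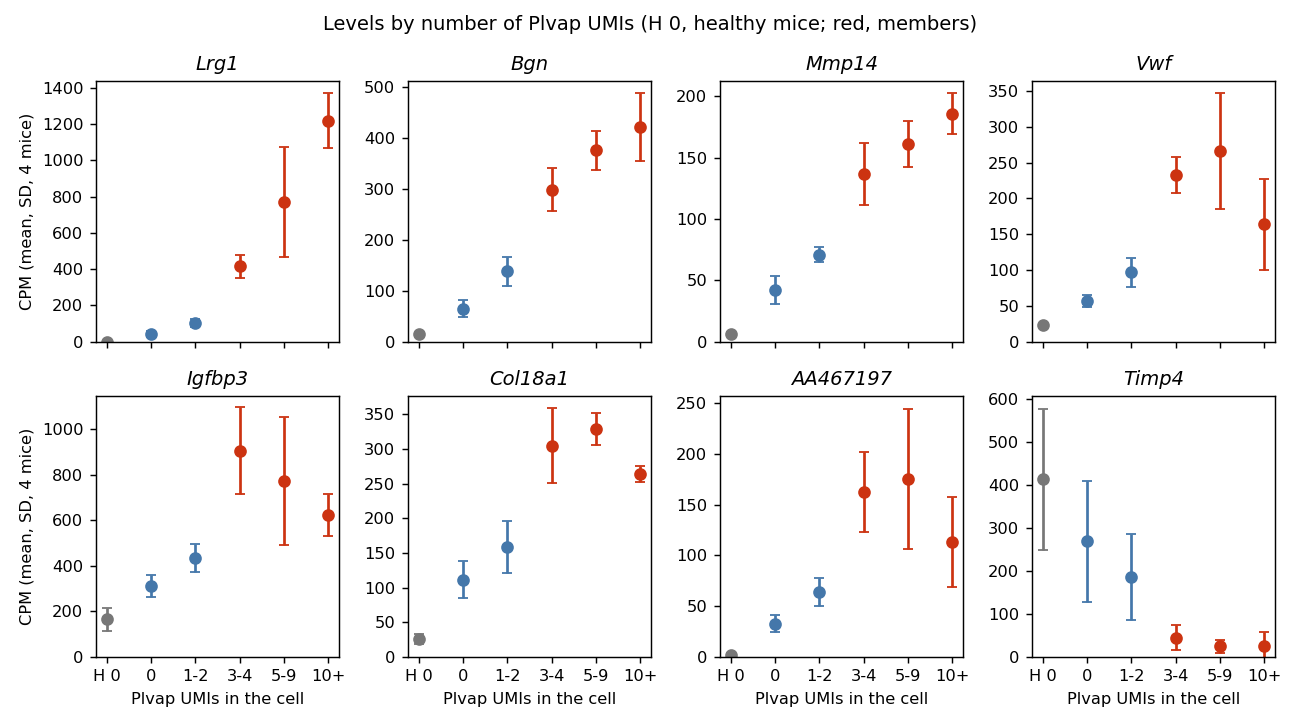
Mean level (CPM, bars are SD over 4 mice) of 8 genes in healthy Plvap-zero cells (H 0, grey, thinned to 1000 UMIs per cell) and in MI cells (thinned to 2000 UMIs per cell) with 0 or 1-2 UMIs of Plvap (blue) and 3-4, 5-9 or 10 and more (red, members). The mean of Lrg1 is higher in each class than in the one before, that of Igfbp3 is highest at 3-4 UMIs and that of Timp4 is lowest in the Plvap-high classes.

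A second comparison set the same cells against 571 Plvap-high cells that held a UMI of Ackr1 or Selp and met the other limits. There were 102, 90, 328 and 51 such cells in MI 244, MI 250, MI 255 and MI 256. They were deeper, with a median of 6507.5 to 7742.5 UMIs per mouse against 5572 to 6600.5 UMIs. At 2000 UMIs only 33.3% of them held Ackr1 and 42.0% held Selp (means of 4 mice). Venular cells in which neither gene was captured may thus lie among the Ackr1-negative cells, and their number was not tested. Both comparisons use the same Plvap-high Ackr1-negative sums, so their values are given side by side only. Of 6105 genes tested, 181 (2.96%) were higher and 259 (4.24%) lower in the Ackr1-negative cells (edgeR, adjusted p under 0.05, mouse as a block), or 7.21% in either direction. The classes did not overlap in 4.26% of genes with the Ackr1-negative cells above and 3.49% with them below. The limit for a gene to be tested was 28.5 CPM in at least 2 of the 8 sums, and 28 of the higher and 48 of the lower genes reached it only through the class in which they were higher. Among the listed and named genes these were Gja5, Hey1, Unc5b, Esm1, Pgf and Aqp7 (higher) and Tagln, Sele, Pdia5, Cxcl1 and Mmp2 (lower), which stay in the counts and are not used as examples. The counts of calls were 113 and 170 without MI 244 and 100 and 159 without MI 255, and DESeq2 called 49 and 88.

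The genes with the largest increases in the Ackr1-negative cells were led by Cxcl12 and Gja4. Cxcl12, the chemokine that draws CXCR4-bearing cells, was at 715, 386, 437 and 509 CPM against 206, 117, 101 and 250 CPM in the Ackr1 or Selp cells (log2 1.77 ± 0.45, higher in 4 of 4 mice, adjusted p = 1.03e-22). It was nonetheless lower than in Plvap-zero cells (512 against 838 CPM, log2 -0.67 ± 0.37). Gja4, an arterial connexin, was at 162, 137, 172 and 127 CPM against 68.6, 44.4, 36.6 and 50 CPM (log2 1.76 ± 0.41, adjusted p = 1.96e-11). Ednrb, the endothelin B receptor (1.75 ± 0.52), Sema7a (1.54 ± 0.15), Btnl9 (1.45 ± 0.80), Cldn5 (1.40 ± 0.17) and Lgals3bp (1.39 ± 0.43) were also among the genes with the largest increases. Igfbp3, a marker proposed beforehand, completed them.

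Of the 4 proposed markers, given here without a test, Igfbp3 was at 259.8, 150, 285 and 160 CPM in the Ackr1 or Selp cells (log2 1.72 ± 0.33 in favour of the Ackr1-negative cells) and AA467197 at 93.1, 55.6, 47.3 and 30 CPM (1.32 ± 0.38). Neither overlapped between the classes. Col18a1 (299 against 262 CPM, 0.26 ± 0.60) and Mmp14 (162 against 132 CPM, 0.36 ± 0.27) overlapped, with MI 256 in the other direction. Of the 4, only Igfbp3 and AA467197 were higher in the Ackr1-negative cells than in both other classes in all 4 mice. This is a description of genes proposed beforehand and is no support for the label of the cells.

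The genes that were lower in the Ackr1-negative cells included Vwf, Lrg1 and Bgn. Vwf was at 466, 822, 633 and 1190 CPM in the Ackr1 or Selp cells (log2 -1.69 ± 0.34, adjusted p = 1.16e-27), and all these values were above those of the Ackr1-negative cells. Lrg1 was at 2598, 2072, 3149 and 1820 CPM there (log2 -1.63 ± 0.43) and Bgn at 1054, 928, 724 and 1140 CPM (-1.35 ± 0.26). Tagln, Sele, Pdia5 and Cxcl1 were also among the largest decreases at a mean of at least 50 CPM. The others besides Vwf were the elastin gene Eln (-1.91 ± 0.32), Ogfrl1 (-1.83 ± 0.77) and Spint2 (-1.77 ± 0.23), each lower in 4 of 4 mice. The adhesion molecules Vcam1 and Icam1, which had not passed against Plvap-zero cells, were at 99.2 against 320 CPM (-1.55 ± 0.61) and 100 against 305 CPM (-1.55 ± 0.41).

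By list, 11 of 12 venous genes were lower and none higher (median -1.35), in cells that had been split on 2 venular genes, against 2.96% higher and 4.24% lower among all genes of this comparison. These shares are the background of the arterial and sprouting counts as well. Nr2f2 was at 51.5, 118, 129.5 and 182 CPM against 191, 133, 238 and 370 CPM (log2 -0.98 ± 0.67) and overlapped between mice. Of 10 arterial genes 6 were higher and 1 lower (median 0.97), 2 of the 6 (Gja5 and Hey1) tested through the Ackr1-negative cells only. The Notch ligand Dll4 (85 against 35.4 CPM, 1.22 ± 0.72) and Gja4 were among the other 4. Of 12 sprouting genes 7 were higher and 1 lower (median 0.83), 3 of the 7 (Unc5b, Esm1 and Pgf) tested through the Ackr1-negative cells only. Rgcc, a regulator of the cell cycle, was at 789, 795, 586 and 482 CPM against 353, 333, 253 and 210 CPM (1.17 ± 0.04). Rgcc nonetheless passed the test as lower in the comparison with Plvap-zero cells. After thinning, a mean of 55.8% of the Ackr1-negative, 69.2% of the Plvap-zero and 31.9% of the Ackr1 or Selp cells held a UMI of it. Apln did not pass (99.4 against 95.3 CPM, 0.27 ± 0.77, adjusted p = 0.591). Without MI 244 4 of 12 sprouting genes were higher, and without MI 255 3 of 7 arterial genes. Without cells that held a marker of another cell type, 2412 genes could be tested, and by edgeR 0 of 5 arterial genes were higher and 1 lower (median -0.13) and 1 of 6 sprouting genes was higher. 7 of 10 venous genes were lower there. DESeq2 called 2 of 10 arterial and 2 of 12 sprouting genes as higher.

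Against the same 2.96% and 4.24% of all genes, the basement membrane list was higher in 5 of 13 genes and lower in none (median 0.26), but in 1 of 11 without cells with markers of other types and in 2 of 13 with DESeq2. The 5 included Nid2 (94.5 against 44.2 CPM, 0.96 ± 0.84, not past the threshold without MI 244, at 0.90), Col4a2 (1174 against 768 CPM, 0.54 ± 0.18) and Lama4 (214 against 137 CPM, 0.63 ± 0.34). Interstitial matrix was lower in 6 of 12 genes (3 of 11 without cells with markers of other types), such as Mgp, an inhibitor of calcification (63.6, 131, 212 and 209 CPM against 382, 400, 438 and 950 CPM, -1.66 ± 0.65), and higher in 2, Sparc and Sparcl1 (1492 against 768 CPM, 0.89 ± 0.21). In the fatty acid list 6 of 13 genes were higher and 1 lower (median 0.36). The number of higher genes was 3 of 14 without MI 256, 3 of 13 with DESeq2, 3 of 12 without the block, 3 of 10 at 1000 UMIs and 2 of 8 without cells with markers of other types. Gpihbp1 (1294 against 663 CPM, 0.98 ± 0.29) lay between the Plvap-zero and the Ackr1 or Selp cells, and the water channel Aqp1 was lower (896 against 1509 CPM, -0.89 ± 0.44). Ehd4 was lower as well (344 against 689 CPM, -1.10 ± 0.46). In the IGF list 2 of 9 genes were higher and 4 (Igf1, Insr, Igfbp4 and Igfbp5) lower (median -0.07). The number lower was 1 with DESeq2 or without MI 244, and 0 at 1000 UMIs or without cells with markers of other types. Of 13 TGF-beta and BMP genes 0 were higher and 5 lower (median -0.31), but 2 of 11 were lower without cells with markers of other types. Without thinning 2 of 15 were higher, and at an unadjusted p under 0.05 in edgeR Tgfbr2 and Id1 were. Of 12 immediate early genes 8 were lower, among them Fos (1349 against 1936 CPM, -0.52 ± 0.24) and Egr1 (257 against 403 CPM, -0.59 ± 0.29), but 5 with DESeq2, 4 without the block and 1 (median -0.14) without cells with markers of other types. Of 14 genes of glycolysis and hypoxia 0 passed, and 0 had an unadjusted p under 0.05 in edgeR or were called by DESeq2, while 1 of 16 was lower without thinning. In the lists of venous and immediate early genes 0 genes were higher, and in that of the basement membrane 0 lower, at an unadjusted p under 0.05 in edgeR or by DESeq2.

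The Plvap-high Ackr1-negative cells were not uniform. At 2000 UMIs, 396 of 1094 cells (36.2%) held Igfbp3 and 588 (53.7%) held Lrg1, and Lrg1 was held by 42.7% of the cells with Igfbp3 and by 60.0% of those without. The share was lower with Igfbp3 in each mouse, at 48.8, 42.7, 35.6 and 51.5% against 57.9, 60.7, 60.7 and 62.3% in MI 244, MI 250, MI 255 and MI 256. Nr2f2 was held by 9.60% of cells with Igfbp3 and 19.6% of cells without, again lower in each mouse. Vwf, also of the venous list, was held by 28.0% of cells with Igfbp3 and 24.4% of cells without, and was higher with Igfbp3 in each mouse. AA467197 went the other way, since Igfbp3 was held by 49.1% of cells with AA467197 and 32.8% of cells without, and more often with it in each mouse. The arterial Gja4 was held by 11.4% of the 175 cells with Nr2f2 and 16.1% of those without, and 20 cells (1.83%) held both. The choice of these pairs followed a look at the data, cells of 1 mouse are not replicates, and no test was made.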

How the data were processed

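The authors sorted the cells, made 1 droplet-based library per mouse and, per the submitters' processing notes, used Cell Ranger, mm10, R 3.5.2 and Seurat 2.3. The deposited values are UMI counts per gene and cell, not normalized, for 16791 genes in 31028 cells of 8 mice. The members and gene lists were chosen with earlier results of these data known.

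Copied healthy cells (at least 90% of UMIs matched) were left out. Cells were selected by the rule, thinned to 2000 UMIs (seeded; 1000 for the levels in healthy cells) and summed per mouse and class, with a minimum of 10 cells per sum. Sums were tested with edgeR 4.0.16 (quasi-likelihood, TMM, filterByExpr, mouse as a block because both classes came from the same mice) in R 4.3.3, with Benjamini-Hochberg adjustment over all genes tested and the genes of the rule removed. Expression is in CPM, the thinned sums scaled to a total of 1000000 counts. The script was tested on simulated data. DESeq2 1.42.0, other limits, thinning depths and subsets of cells were alternatives, and the closing section gives their effect. Named genes had an adjusted p under 0.05, a mean of at least 50 CPM and 1 direction in all 4 mice, and were the 12 largest on each side in the comparison with Plvap-zero cells and the 8 largest on each side in the second. To these were added the proposed markers, Lrg1, Bgn, Vwf and examples from the lists, the examples chosen after their values had been seen. Some genes that the rule names are not reported here. Replicates were separate mice. Library depth was 6764977 to 27244947 UMIs. No doublet caller was run, and cells with transcripts of other cell types were left out in an alternative instead. Python 3.11.15, numpy 2.4.6, scipy 1.17.1 and pandas 2.3.3 were used for selection and shares. Promoters were taken from RefSeq on GRCm38.p6, the assembly of mm10, and 7826 of the 10223 genes tested matched by symbol.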

Additional observations from a re-analysis of the deposited data

Results flagged for a closer look

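In 7 of 123 groups of values examined, 1 mouse stood apart from the other 3. The limit was Dixon's 95% limit for the ratio of gap to range, and chance alone gives about 1 in 20. All 7 were log2 differences of a gene. Against Plvap-zero cells these were Ehd4, where MI 244 was highest at 1.50, Sparc and Insr, where MI 256 was highest at 0.80 and 1.88, Dll4, where MI 256 was lowest at -1.39, and Gpihbp1, where MI 255 had the smallest decrease at -0.60. Against Plvap-high cells with Ackr1 or Selp, MI 256 was highest for AA467197 at 1.97 and lowest for Egr1 at -1.03. MI 256 had the fewest Plvap-high cells (113) and the smallest library of the MI mice, and the part of this in these values was not tested. In each of these genes all 4 mice had the same direction.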

How the results depend on the processing

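The share of Plvap-high cells fell from a mean of 10.1% to 3.47% when cells were thinned to 1000 UMIs before the rule was applied, and MI mice remained above healthy mice under every limit tried. Against Plvap-zero cells, 917 genes were higher and 899 lower; DESeq2 gave 547 and 469, thinning to 1000 UMIs 581 and 581, no thinning 1672 and 1544, no cells with markers of other types 360 and 386, and cells matched on total UMIs 545 and 564. Leaving out 1 mouse gave 659 to 880 higher and 672 to 792 lower. Against the Ackr1 or Selp cells, 181 and 259 became 49 and 88 with DESeq2, 93 and 135 at 1000 UMIs, 470 and 556 without thinning, and 33 and 39 without cells with markers of other types, where 2412 in place of 6105 genes were tested. Leaving out 1 mouse gave 100 to 147 higher and 159 to 251 lower. Without the pairing by mouse (no block) the counts were 534 and 552, and 76 and 116. The cause of these shifts was not tested, apart from the number of genes tested.

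The genes named by the rule, the proposed markers and the list examples were followed over the alternatives. Of 1193 values of 80 such genes against Plvap-zero cells, 1145 kept their direction and their side of the threshold. Of 439 values of 42 genes in the second comparison 418 did. Most of these genes were chosen for large changes or after their values had been seen. Alternatives in which a gene was no longer tested are not counted, so these numbers do not describe all genes. The direction turned for Hba-a2 and Hbb-bs (0.043 and 0.038 without haemoglobin-rich cells), Vegfc and Esm1 (0.33 and -0.039 without arterial cells), Apln and Gja4 (0.0069 and -0.0049 without cells with markers of other types), Gja4 and Vim (-0.37 and -0.038 where cells were thinned before selection) and Vim (-0.13 with matched cells). In the second comparison it turned for Apln (-0.0505 without thinning). The comparisons of Plvap-high cells between MI and healthy mice, and of Plvap-high with Plvap-zero cells within healthy mice, could not be run with their alternatives, because healthy mice held 4, 1, 3 and 1 such cells. With 113 Plvap-high cells in MI 256, a gene at 10 CPM rests on few UMIs there.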
